A study of Rattus norvegicus with 18 samples.

Results

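Amino acid and neurotransmitter transporters are membrane proteins of the solute carrier superfamily. The genes described here are those whose symbol lies in the families Slc1, Slc3, Slc6, Slc7, Slc17, Slc32, Slc36, Slc38 and Slc43, together with the aromatic amino acid transporter Slc16a10. Of 14506 genes with a probe set assigned to exactly 1 symbol, 64 were such transporters, each with 1 probe set. A 65th matching symbol, Slc7a6os, names a gene on the strand opposite Slc7a6 that is no transporter, and it is left out of the counts. Its own difference with age was 0.22 (SE 0.08, limma adjusted p = 0.031).

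The tumours were medullary thyroid carcinomas, cancers of the calcitonin-producing C cells, from rats of the MENX syndrome on a Sprague–Dawley white eye/Wistar–Kyoto background. All carried the mutant allele of Cdkn1b, the gene of the cell cycle inhibitor p27Kip1: 6 tumours came from homozygous mutants aged 9 months, 6 from heterozygous mutants aged 9 months and 6 from heterozygous mutants aged 18 months. No animal was treated, and neither wild-type rats nor normal thyroid were among the 18 arrays. RNA of each tumour, each with its own animal code in the labels, was hybridised to an Affymetrix expression array, so p-values measure the spread between these animals.

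In the text below, a level is the deposited log2 intensity after robust multi-array averaging, and a difference is one of 2 group means on that log2 scale, where 1 is a doubling. A gene was tested when its mean over all arrays reached 6.322, and it was called when limma's Benjamini-Hochberg adjusted p over all 11370 tested genes was under 0.05. Levels are not set against each other between genes, since probe sets differ in brightness. The number of arrays, 6 per group, limits the precision of every value.

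Transport of amino acids works through a division of labour. Slc1 carriers take up glutamate or exchange small neutral amino acids, and Slc6 carriers use sodium and chloride to recover glycine, GABA, serotonin and other small molecules. Most Slc7 light chains need a heavy chain, Slc3a2 or Slc3a1, to reach the membrane, and exchange large neutral, basic or acidic amino acids, cystine among them. Slc38 carriers move glutamine and related amino acids, and several Slc36 carriers export or import small amino acids with protons. Slc32 and several Slc17 proteins load vesicles, while other Slc17 proteins export sialic acid from lysosomes or belong to kidney phosphate and urate transport. Slc43 proteins are facilitated carriers. Leucine and glutamine brought in by these routes feed the lysosomal mTORC1 growth pathway, and a shortage of amino acids raises several of the carriers through the transcription factor Atf4.

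The tumour type is given by the labels. Calca, the calcitonin gene, was at or above the 99.94th percentile of genes on every array. The follicular marker Tg had group means of 13.60 to 14.34 and the parathyroid marker Pth of 10.62 to 13.59 on the same arrays. The Calca level therefore does not give the share of tumour cells. Between 9 and 18 months in the heterozygotes, 44.1% of all tested genes were called, 21.6% higher and 22.4% lower. Of 13 measured C cell markers, 9 rose over that interval. The mean of the list ranged from 10.22 to 10.86 on the 9-month and from 10.92 to 11.98 on the 18-month arrays. Markers of other cells of the gland moved too. Of 10 tested follicular cell markers 9 fell (list mean 11.04 to 11.14 against 7.29 to 10.92), and all 10 endothelial markers fell (9.98 to 10.18 against 8.10 to 9.96). All 8 tested adipocyte markers fell, as did 6 of 10 fibroblast markers, while 1 fibroblast marker, Thy1, rose (0.68). Of 10 macrophage markers 3 rose and 1 fell, and 1 of 4 Schwann cell markers and no T cell marker of 6 was called. The list means for parathyroid (8.53 to 12.87 over the 18-month arrays, 9.87 to 12.81 over the 9-month heterozygous arrays) and skeletal muscle (6.79 to 10.72 and 9.49 to 11.56) were wide in every group. All 11 tested muscle markers were lower at 18 months (median difference -1.78). Of these, 8 had an unadjusted limma p under 0.05 and 1, Myh4, was called. Of 3 tested parathyroid markers, Gcm2 was called lower (-2.58) and Casr higher (0.56). In RNA of whole tumours, fewer cells of a type and less RNA per cell cannot be told apart. A principal component analysis put 63.9% of the spread between arrays on component 1, where 18-month replicates 1, 2, 3 and 6 scored 35.84 to 69.87, 18-month replicates 4 and 5 at -11.72 and 4.21, and homozygous replicate 3 at 23.95, with the other arrays between -28.56 and -9.68. Cdkn1b itself was measured at 11.07 ± 0.10 in homozygous, 10.78 ± 0.10 in 9-month heterozygous and 10.92 ± 0.15 (SD, n = 6 each) in 18-month heterozygous tumours.

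The largest contrast of the design was age in heterozygotes. Carriers of large neutral amino acids, cystine, basic amino acids and glutamine (Slc7a5, Slc7a11, Slc7a1, Slc38a5, Slc1a5) were 1.10 to 1.98 higher at 18 months. Carriers of GABA, glycine and proline (Slc6a11, Slc6a9, Slc6a20a) and the light chain Slc7a7 were 1.31 to 1.63 lower. Within the same ranges, the neuronal vesicular carrier Slc6a17 was 1.15 higher and Slc6a14, a carrier of many amino acids, 1.48 lower. Of 46 transporters tested, 29 were called, 18 higher and 11 lower, which is 63.0% where 44.1% of all tested genes were called (21.6% higher, 22.4% lower). By an unadjusted p under 0.05 it was 32 of the 46 (69.6%, against 51.4% of all genes). Of the 46, 12 were called and differed by 1 or more in size, against 8.05% of all genes. In 17 of the 46 the groups did not overlap, 11 higher and 6 lower, against 18.1% of all genes (9.07% higher and 9% lower). The median difference over the 46 was 0.01 and over all genes -0.0045, while the median size of the difference was 0.50 for transporters and 0.20 for all genes. Only the 46 passing the level filter enter these counts. One of them, Slc7a11, passed through its 18-month level alone, since its means in the other groups (6.07 and 5.85) lay under the filter.

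**Figure D1:**
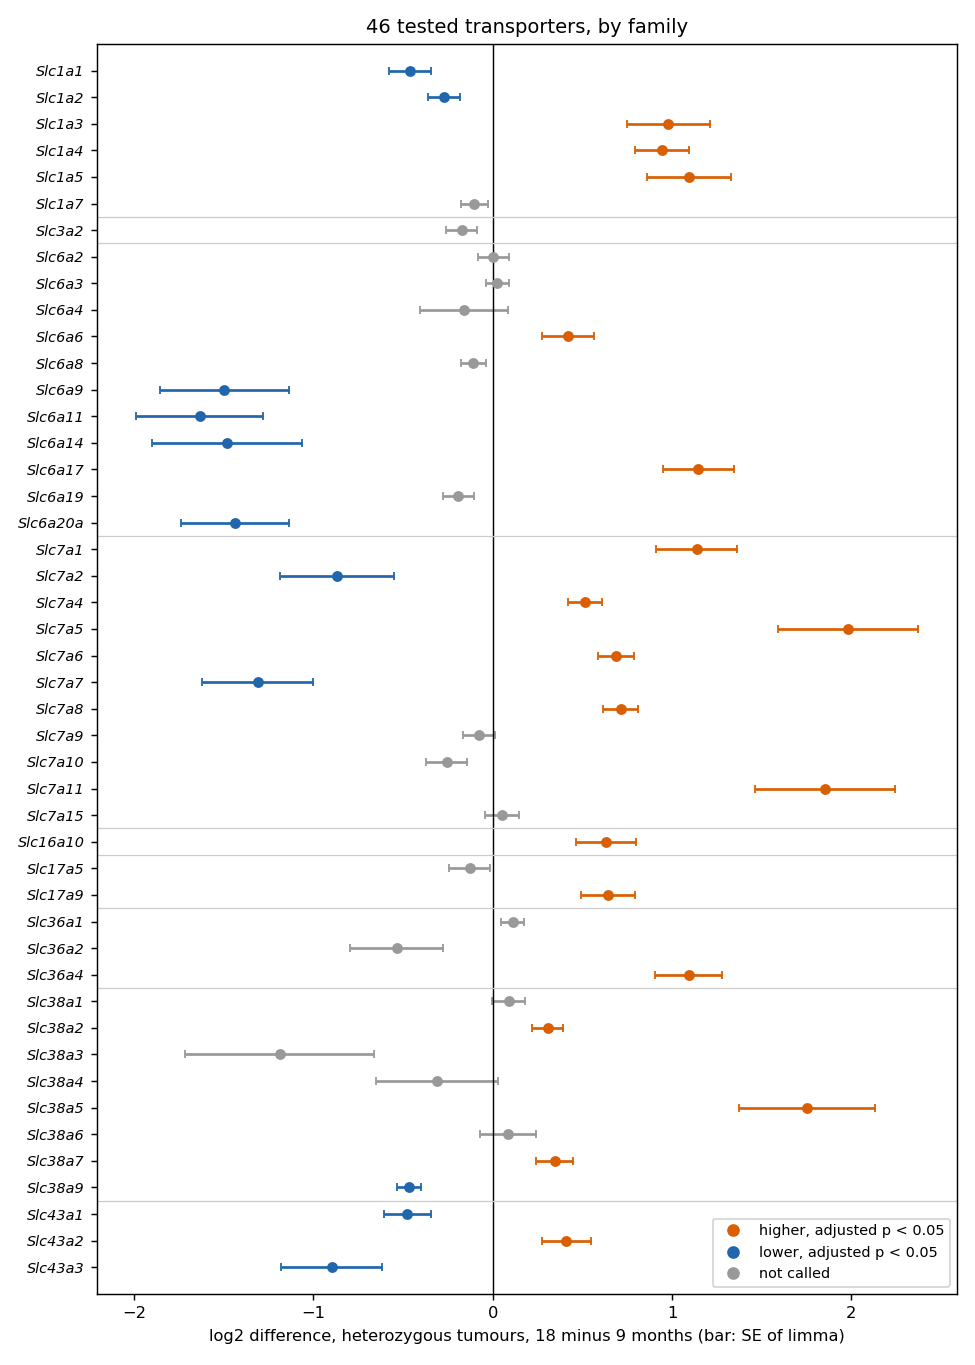
Log2 difference of 18-month minus 9-month heterozygous tumours (x axis) for the 46 tested transporters grouped by family, with bars of ± 1 SE from limma (n = 6 per group). Differences run from -1.63 in Slc6a11 to 1.98 in Slc7a5, and 29 of the 46 were called.

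Slc7a5, an exchanger of large neutral amino acids, had the largest rise. Slc7a5 (LAT1) is a light chain that brings in leucine and other essential amino acids in exchange for glutamine. It ranged from 8.18 over a median of 8.40 to 8.67 in 9-month heterozygotes and from 8.99 over 10.72 to 11.53 at 18 months. All 6 older tumours lay above all 6 younger ones, with a difference of 1.98 (SE 0.39, limma adjusted p = 0.00114). Slc7a8 (LAT2), which carries large and small neutral amino acids, ran from 10.04 over 10.27 to 10.67 and then from 10.93 over 11.05 to 11.12. Its 6 older tumours again sat above all younger ones, this time within a band with an SD of 0.07, and it had the smallest p of all transporters (difference 0.71, SE 0.10, limma adjusted p = 0.000239). Slc7a6, which exchanges basic for neutral amino acids, rose by 0.69 (SE 0.10), again with no overlap (8.63 to 8.82 against 9.07 to 9.65).

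Slc7a11 (xCT), the light chain that imports cystine for glutamate and so feeds glutathione synthesis, ranged from 5.54 over 5.82 to 6.31 at 9 months and from 6.08 over 8.19 to 8.80 at 18 months. Of the older tumours 5 lay above every younger one and the lowest of them overlapped. The difference was 1.85 (SE 0.39, limma adjusted p = 0.00167). All of its 9-month heterozygous values lay under the level filter, as did its homozygous mean. The gene was therefore tested only because its 18-month level was high, which limits what this p-value shows. Slc7a7, the other light chain for basic amino acids with Slc3a2, which is widely known from monocytes, kidney and intestine, went the opposite way, from 9.77 over 9.87 to 10.14 down to 7.14 over 8.60 to 9.83. Here 5 older tumours lay below all younger ones (difference -1.31, SE 0.31, limma adjusted p = 0.00316).

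The common heavy chain was not called. Slc3a2 (CD98), which these light chains pair with, ranged from 12.20 over 12.34 to 12.49 at 9 months and from 11.95 over 12.12 to 12.43 at 18 months, a difference of -0.17 (SE 0.08, limma adjusted p = 0.108). The older and younger tumours overlapped, with 3 of the older below every younger one. Without 18-month replicate 5 the difference was -0.23 (limma adjusted p = 0.0289), and without replicates 4 and 5 it was -0.28 (limma adjusted p = 0.0055). Those replicates held the highest 18-month values of Slc3a2 (12.33 and 12.43), so a larger fall follows from leaving them out. The joint omission was decided after the data were seen. Of the 8 tested light chains, 4 rose (Slc7a5, Slc7a6, Slc7a8 and Slc7a11) and 1 fell (62.5% called, against 44.1% of all genes). Slc7a9, partner of Slc3a1 in renal cystine uptake, differed by -0.08, Slc7a10 by -0.26 and Slc7a15 by 0.05, none of them called. Slc3a1 itself was below the filter.

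**Figure D2:**
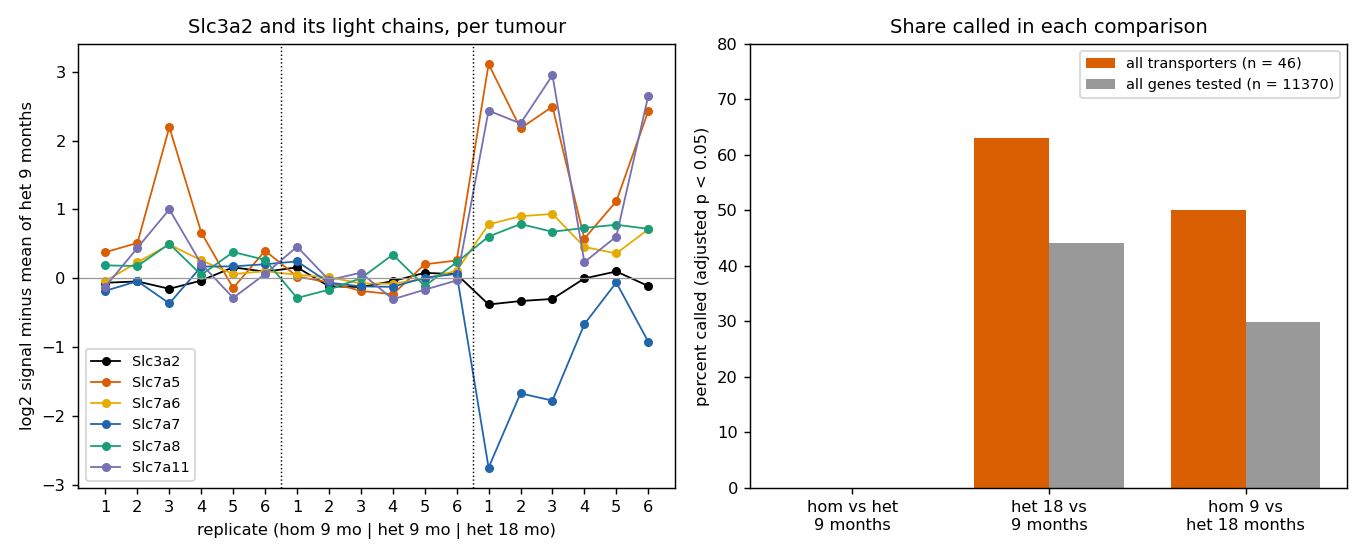
Left, levels of Slc3a2 and of 5 of its Slc7 partners in each tumour as a log2 difference from the 9-month heterozygous mean: the older tumours lie above 0 for Slc7a5, Slc7a6, Slc7a8 and Slc7a11 and below it for Slc7a7. Right, percent of genes called in each comparison for the 46 transporters and for all 11370 tested genes: 0 and 0 for genotype, 63.0 and 44.1 for age, 50 and 29.8 for homozygous 9 months against heterozygous 18 months.

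Among the basic amino acid carriers, Slc7a1 (CAT1), the widespread arginine and lysine importer, rose from 8.26 over 8.41 to 8.60 to 8.75 over 9.66 to 10.25. All 6 older tumours were above all younger ones, and the difference was 1.14 (SE 0.23, limma adjusted p = 0.00122). Slc7a4, a related protein whose substrate is uncertain, also rose without overlap, by 0.52 (SE 0.09). Slc7a2 (CAT2), an inducible arginine carrier, fell by 0.87 (SE 0.32, limma adjusted p = 0.0343) with overlapping groups (8.24 to 9.66 against 7.45 to 9.29). Its call was lost when any of 8 single arrays was left out, 9-month replicates 3, 4, 5 or 6 or 18-month replicates 2, 3, 5 or 6, with differences between -1.10 and -0.73 over all single omissions.

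The neutral members of Slc1 rose together. Slc1a5 (ASCT2), an exchanger that takes up glutamine, ranged from 8.22 over 8.44 to 8.64 at 9 months and from 8.84 over 9.69 to 10.11 at 18 months (difference 1.10, SE 0.23, limma adjusted p = 0.00174). Slc1a4 (ASCT1), which exchanges alanine, serine and cysteine, ranged from 7.93 over 7.95 to 8.23 and from 8.44 over 9.06 to 9.32 (difference 0.94, SE 0.15, limma adjusted p = 0.000432). Neither gene's older and younger tumours overlapped. The glutamate carriers split. Slc1a3 (GLAST), known best from glia, rose by 0.98 (SE 0.23, limma adjusted p = 0.00309) with 5 older tumours above all younger ones. Slc1a1 (EAAT3), a neuronal and epithelial glutamate and cysteine carrier, fell by 0.46 (SE 0.12) and Slc1a2 (GLT-1), the main astrocyte glutamate carrier, by 0.27 (SE 0.09). Slc1a7 differed by -0.10 and was not called.

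Several of these genes are textbook targets of Atf4, so the promoters were searched for its composite site TGATGNAA, N being any base, on both strands, and for the CREB site TGACGTCA, a palindrome. Both begin with TGA, and the matches of each fell in different promoters of these genes. Windows of 250 bases before to 50 bases after a transcription start came from RefSeq on GRCr8, 1 start per gene. For Slc1a4 and Slc38a1 that start lies inside the outer end of the annotated gene. Of the 64 transporters, 50 were matched, by gene identifier or, where that gave none, by symbol. TGATGNAA occurred in 3.98% of all 33469 windows and in 3 of the 50, namely 2 of 15 transporters that were higher at 18 months, 0 of 8 that were lower and 1 of 14 that were not called. TGACGTCA occurred in 1.83% of all windows and in 1 of the 50, that of Slc38a6. The 3 windows with TGATGNAA are shown, with the matched bases in capitals, because they set 2 called carriers beside 1 that was not. The windows lie at chr14:98761513-98761812 on the minus strand for Slc1a4, where the match is in reverse complement, at chr12:11664238-11664537 on the plus strand for Slc7a1, and at chr7:129681352-129681651 on the minus strand for Slc38a1.
Slc1a4: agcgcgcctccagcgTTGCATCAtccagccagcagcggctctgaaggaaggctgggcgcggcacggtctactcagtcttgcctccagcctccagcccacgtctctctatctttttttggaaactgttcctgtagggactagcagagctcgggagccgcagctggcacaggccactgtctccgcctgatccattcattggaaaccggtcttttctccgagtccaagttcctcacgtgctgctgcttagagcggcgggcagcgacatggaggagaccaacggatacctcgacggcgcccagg
Slc7a1: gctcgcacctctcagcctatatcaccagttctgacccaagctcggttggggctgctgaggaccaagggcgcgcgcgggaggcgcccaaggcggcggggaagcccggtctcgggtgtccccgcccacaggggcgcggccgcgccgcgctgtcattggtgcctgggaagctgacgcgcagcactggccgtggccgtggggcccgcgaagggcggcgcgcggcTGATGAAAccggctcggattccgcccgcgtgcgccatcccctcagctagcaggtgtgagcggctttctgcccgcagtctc
Slc38a1: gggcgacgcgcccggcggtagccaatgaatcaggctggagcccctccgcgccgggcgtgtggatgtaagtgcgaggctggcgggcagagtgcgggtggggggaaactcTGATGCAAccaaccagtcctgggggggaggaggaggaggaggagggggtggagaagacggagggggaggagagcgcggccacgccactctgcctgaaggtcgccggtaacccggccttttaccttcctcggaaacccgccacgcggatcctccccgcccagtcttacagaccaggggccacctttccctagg
The match begins at base 16 of the Slc1a4 window, base 221 of the Slc7a1 window and base 109 of the Slc38a1 window. A match is a description of the letters and not evidence of binding.

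Among the 8 tested carriers of Slc38, a family that moves glutamine, 3 rose and 1 fell (50% called, near the 44.1% of all genes). Slc38a5 (SNAT5), which moves glutamine, serine and glycine in exchange for protons, ranged from 7.14 over 7.32 to 7.90 at 9 months and from 7.99 over 8.98 to 11.01 at 18 months. The groups did not overlap (difference 1.75, SE 0.38, limma adjusted p = 0.00192). Slc38a2 (SNAT2), the classic amino acid-responsive carrier, rose by 0.31 (SE 0.08, limma adjusted p = 0.00808) and the lysosomal Slc38a7 by 0.34 (SE 0.10). Slc38a1 (SNAT1), whose promoter is printed above, was not called: it ranged from 10.68 to 11.14 at 9 months and from 10.81 to 11.28 at 18 months (difference 0.09, SE 0.09, limma adjusted p = 0.472).

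Slc38a9, the lysosomal arginine sensor of mTORC1, was the 1 member of its family called lower. It ranged from 9.44 over 9.49 to 9.56 at 9 months and from 8.87 over 9.01 to 9.18 at 18 months, without overlap (difference -0.47, SE 0.07, limma adjusted p = 0.000304). Slc38a3 (SNAT3), a glutamine carrier of liver and brain, had the largest SD at 18 months among the tested transporters (1.44), 6.47 to 10.38 at 18 months against 9.02 to 10.25 at 9 months. Its difference of -1.19 (SE 0.53, limma adjusted p = 0.0771) was not called, but it was called without 18-month replicate 4 (-1.56, limma adjusted p = 0.0118) or replicate 5 (-1.46, limma adjusted p = 0.0306). Not called either were those of Slc38a4 (-0.31) and Slc38a6 (0.08). In Slc36, the lysosomal and plasma membrane carrier Slc36a4 rose without overlap, from 8.40 over 8.49 to 8.66 to 8.95 over 9.66 to 10.05 (difference 1.09, SE 0.19, limma adjusted p = 0.000581). Slc36a1 (0.11) and Slc36a2 (-0.54) were not called.

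Of the 5 tested Slc6 carriers of neurotransmitters, 2 fell and 3 were not called (40% called, against 44.1% of all genes). Slc6a11 (GAT3), which recovers GABA, ranged from 10.20 over 10.42 to 10.62 at 9 months and from 7.11 over 8.90 to 10.02 at 18 months (difference -1.63, SE 0.35, limma adjusted p = 0.00187). Slc6a9 (GLYT1), the glycine carrier, ranged from 11.08 over 11.15 to 11.26 and from 7.94 over 9.52 to 10.83 (difference -1.50, SE 0.36, limma adjusted p = 0.00347). In both genes all 6 older tumours lay below all younger ones and were far more spread. Of the monoamine carriers, Slc6a2 (noradrenaline) differed by 0.0022, Slc6a3 (dopamine) by 0.03 and Slc6a4 (serotonin) by -0.16, and none of the 3 was called. Slc6a2 and Slc6a3 had means of 6.55 and 6.36 over all arrays, near the filter of 6.322, where a change would be hard to see.

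Other Slc6 members moved in both directions. Slc6a17, a vesicular carrier of neutral amino acids in neurons, ranged from 8.77 over 9.08 to 9.23 at 9 months and from 9.38 over 10.35 to 10.63 at 18 months, with no overlap (difference 1.15, SE 0.20, limma adjusted p = 0.000581). Slc6a20a, the proline and imino acid carrier, fell without overlap from 9.85 over 9.92 to 9.95 to 7.19 over 8.36 to 9.77 (difference -1.44, SE 0.30, limma adjusted p = 0.00158). Slc6a14, an epithelial carrier of a broad range of amino acids, fell from 8.78 over 8.92 to 9.56 to 5.97 over 7.53 to 8.90 (difference -1.48, SE 0.42, limma adjusted p = 0.00928), with 5 older tumours below all younger ones. The taurine carrier Slc6a6 rose by 0.42 (SE 0.14, limma adjusted p = 0.0255), a call lost without 9-month replicate 2, 3 or 4 or 18-month replicate 1, 2 or 3 (0.36 to 0.40 in those fits) and turned in sign by the C cell covariate (-0.22). Slc6a8 (creatine) and Slc6a19 (neutral amino acids of gut and kidney) differed by -0.11 and -0.19 and were not called.

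**Figure D3:**
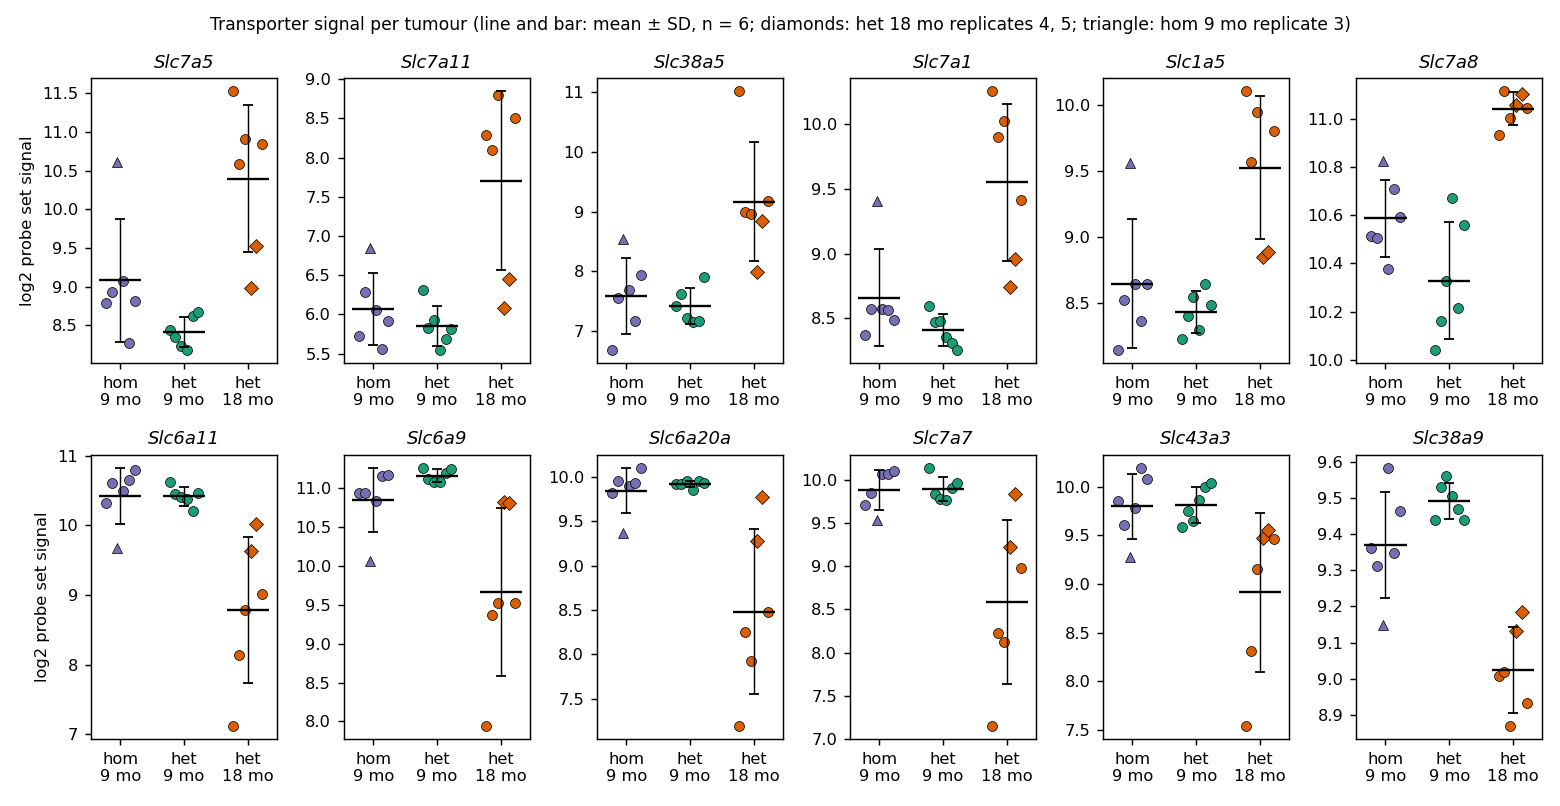
Log2 intensity (y axis) in each tumour for 6 transporters that rose with age (top) and 6 that fell (bottom), in homozygous 9-month, heterozygous 9-month and heterozygous 18-month groups, with a line and bar for mean ± SD (n = 6). Diamonds mark 18-month replicates 4 and 5 and triangles homozygous replicate 3. The highest 18-month Slc7a5 value is 11.53 and the highest 9-month heterozygous value 8.67.

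The remaining families were small. Slc17a9, the vesicular nucleotide transporter, rose by 0.64 (SE 0.15, limma adjusted p = 0.00322) from 9.21 to 9.61 at 9 months to 9.56 to 10.62 at 18 months, with 5 older tumours above all younger ones. Slc17a5 (sialin, a lysosomal sialic acid exporter) differed by -0.13 and was not called. Slc16a10 (TAT1), which lets aromatic amino acids and thyroid hormones across the membrane, rose without overlap from 7.68 over 7.90 to 8.09 to 8.16 over 8.47 to 8.83 (difference 0.63, SE 0.17, limma adjusted p = 0.0062). In Slc43, the neutral amino acid carrier Slc43a1 (LAT3) fell by 0.48 (SE 0.13) and the purine nucleobase carrier Slc43a3 by 0.90 (SE 0.28, limma adjusted p = 0.0162), each without overlap. Slc43a2 (LAT4) rose by 0.41 (SE 0.14, limma adjusted p = 0.0225), a call lost without 9-month replicate 3 or 18-month replicate 1 or 2, with differences of 0.32 to 0.50 over single omissions.

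The 18 transporters below the filter included the vesicular glutamate carriers Slc17a6, Slc17a7 and Slc17a8, the vesicular GABA and glycine carrier Slc32a1 and the kidney phosphate and urate family members Slc17a1, Slc17a2 and Slc17a3. Their single-tumour values ran from 4.289 to 7.249, and their age differences from -0.25 in Slc17a8 to 0.32 in Slc6a15, with 12 of the 18 within 0.1 of 0. They received no test in the main analysis.

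The same tumours were extreme in many of these genes. In 21 of the 29 called transporters (72.4%), 18-month replicates 4 and 5 were the 2 arrays nearest to the 9-month tumours, and in 26 (89.7%) homozygous replicate 3 lay farthest of its group toward the 18-month side. The same held for 64.9% and 74.7% of all called genes. Slc7a8 and Slc38a9 were tight at 18 months, at 10.93 to 11.12 and 8.87 to 9.18. The median SD over the tested transporters was 0.24 in homozygotes, 0.14 in 9-month heterozygotes and 0.35 in 18-month heterozygotes, against 0.16, 0.11 and 0.19 for all genes. Without replicates 4 and 5, 33 of the 46 were called, among them all 29, while the share of all genes called went from 44.1% to 53.9%. The median of the 18 rises went from 0.83 to 0.99 and that of the 11 falls from -0.90 to -1.20. This omission was decided after the data were seen. Since these 2 arrays lay nearest to the 9-month tumours in most of these genes, larger differences follow from that choice.

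**Figure D4:**
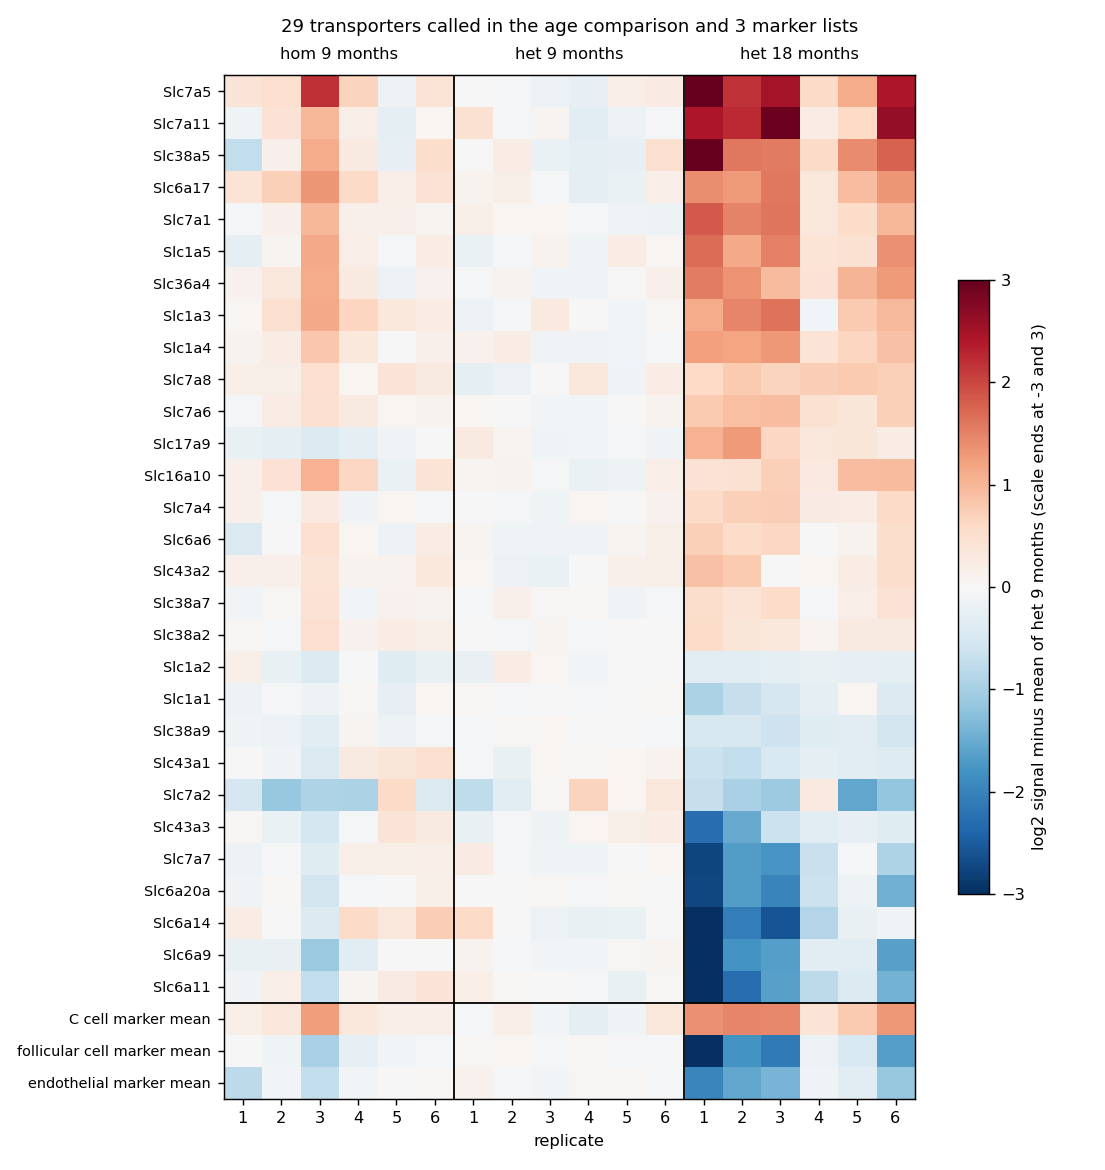
Level of each of the 29 transporters called for age in each of the 18 tumours, with the means of the C cell, follicular and endothelial marker lists, as log2 difference from the 9-month heterozygous mean on a colour scale from -3 to 3. Columns 4 and 5 of the 18-month group are paler, and replicate 3 of the homozygous group is darker than its neighbours.

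The markers of other cells moved with these transporters. With the follicular list mean of each tumour as a covariate, 2 transporters remained called, Slc7a8 (difference 0.74, limma adjusted p = 0.0234) and Slc38a9 (-0.35, limma adjusted p = 0.0465), while 1.77% of all genes were called. All 18 rises and 10 of the 11 falls kept their sign in that fit, Slc43a3 excepted, and their medians were 0.42 and -0.22. With the endothelial mean, a covariate added after the data were seen, only Slc7a8 of the transporters was called (0.72, limma adjusted p = 0.0485), with 0.255% of all genes. With the C cell mean, no transporter and no gene of the 11370 was called by limma; 6 of the 46 transporters had an unadjusted p under 0.05 (13.0%, against 9.56% of all genes), and 13 rises and 10 falls kept their sign. With the skeletal muscle mean 25 were called, and 36.1% of all genes. The list means themselves differ between the age groups, so these fits cannot tell cell make-up and age apart.

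Genes that work beside the carriers were counted in 4 further lists. Of 18 tested genes of amino acid sensing upstream of mTORC1, 6 rose and 3 fell (50% called, near the 44.1% of all genes). The arginine sensor relative Castor2 rose by 0.57 (SE 0.08). The leucine sensor relative Sesn3 fell by 0.51 (SE 0.08) and Lamtor4 of the lysosomal Ragulator complex fell by 0.38 (SE 0.07). Of 18 tested genes of the Atf4 response, 5 rose and 4 fell, again 50% called. Asparagine synthetase Asns (0.50, SE 0.11) and the proline synthesis enzymes Aldh18a1 (0.55, SE 0.12) and Pycr1 (0.83, SE 0.16) rose. Chosen after their values were seen, the serine synthesis enzymes Phgdh (-1.19, SE 0.27) and Psat1 (-1.86, SE 0.49) fell. Atf4 itself differed by 0.03 (limma adjusted p = 0.80).

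Of 13 tested genes of glutamate, glutamine and GABA metabolism, 7 rose and 1 fell (61.5% called, where 21.6% of all genes rose and 22.4% fell). Mitochondrial aspartate aminotransferase Got2 (0.49, SE 0.10), the GABA-degrading Abat (0.81, SE 0.19) and Aldh5a1 (0.37, SE 0.08) rose. Chosen after their values were seen, the GABA-forming decarboxylases Gad1 (1.67, SE 0.52, limma adjusted p = 0.0159) and Gad2 (2.61, SE 0.84, limma adjusted p = 0.0189) rose, as did the branched-chain aminotransferase Bcat1 (2.62, SE 0.80), while its mitochondrial counterpart Bcat2 fell by 0.71 (SE 0.22). Of 5 tested vesicular monoamine and peptide carriers, Slc18a1 (1.02, SE 0.27) and Slc29a4 (1.68, SE 0.35), a plasma membrane monoamine carrier, rose and the peptide carrier Slc15a2 fell by 1.70 (SE 0.30), 60% called. All 4 lists were drawn up with earlier results of these data known.

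The genotype comparison at 9 months, homozygous against heterozygous, gave no call in the main fit. None of the 46 transporters and none of the 11370 genes passed limma's adjusted threshold (0% called). An unadjusted p under 0.05 was found for 4 of the 46 (8.70%, against 8.75% of all genes). With only these 2 groups in the fit, limma called 24 of all genes (0.211%) and no transporter. In that fit 10 of the 46 had an unadjusted p under 0.05 (21.7%, against 15.2% of all genes). The main fit's median difference was 0.04 and its smallest adjusted p among transporters 0.415. That smallest value belonged to Slc6a17, which ranged from 9.24 over 9.54 to 10.36 in homozygotes and from 8.77 over 9.08 to 9.23 in heterozygotes (difference 0.61, SE 0.20), the single transporter whose groups did not overlap, where 1.57% of all genes had no overlap (0.651% higher, 0.915% lower). The serotonin carrier Slc6a4 ranged from 8.13 over 8.42 to 9.37 in homozygotes and from 7.52 over 7.89 to 8.16 in heterozygotes, with 5 homozygous tumours above all heterozygous ones (difference 0.71, SE 0.25, limma adjusted p = 0.454). With array weights the Slc6a4 difference was 0.85 and was called (limma adjusted p = 0.0486), the single transporter called in that fit, where 1.04% of all genes were called. The next smallest p among those higher belonged to Slc7a8 (0.26, SE 0.10), and the 3 smallest among those lower to Slc1a2 (-0.17, SE 0.09), Slc38a9 (-0.12, SE 0.07) and Slc7a2 (-0.56, SE 0.32), none of them called. In the main fit no gene of the 4 further lists was called either.

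The remaining contrast sets 9-month homozygotes against 18-month heterozygotes, differing in both genotype and age, and shares its 18-month tumours with the age contrast. Of the 46 transporters, 23 were called (50%, against 29.8% of all genes), 11 higher in homozygotes and 12 lower, where 16.2% of all genes were higher and 13.6% lower. Of the 46, 8 were called and differed by 1 or more, where 4.01% of all genes did. An unadjusted p under 0.05 was found for 29 of the 46 (63.0%, against 41.8% of all genes). In 2 of the 46, Slc7a8 and Slc17a9, all homozygous tumours lay below all 18-month ones, against 2.25% of all genes with no overlap (1.26% higher, 0.994% lower). The 5 largest positive differences were in Slc6a14 (1.72), Slc6a11 (1.64), Slc6a20a (1.36), Slc7a7 (1.302) and Slc6a9 (1.19), and the 5 largest negative in Slc7a11 (-1.64), Slc38a5 (-1.57), Slc7a5 (-1.32), Slc7a1 (-0.89) and Slc1a5 (-0.88). The homozygous mean of Slc7a11 (6.07) lay under the level filter, so that gene was tested here only through its 18-month level. Slc17a9 ranged from 8.91 over 9.10 to 9.33 in homozygotes and had the smallest p (difference -0.86, SE 0.15, limma adjusted p = 0.00462). Slc6a4 was higher in homozygotes by 0.87 (SE 0.25, limma adjusted p = 0.0167), with 3 homozygous tumours above all 18-month ones. With only these 2 groups in the fit, 9 transporters were called, 4 higher and 5 lower, where 6.23% of all genes were, and 11 of the named genes lost their call: Slc7a5, Slc7a11, Slc38a5, Slc7a1, Slc1a5, Slc6a14, Slc6a9, Slc7a7, Slc6a4, Slc6a8 and Slc36a4. In this contrast 7 of 10 follicular and 7 of 10 endothelial markers were higher in homozygotes, and 7 of 13 C cell markers lower. With any of these 3 list means as a covariate limma called no transporter, and 0%, 0.0352% and 0% of all genes. An unadjusted p under 0.05 was found for 12, 15 and 11 of the 46 (26.1%, 32.6% and 23.9%). Of all genes it was 12.5%, 12% and 10.9%. The call of Slc7a5 was also lost without homozygous replicate 5 or 18-month replicate 1, and that of Slc6a9 without 18-month replicate 2.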

How the data were processed

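The authors deposited 1 table of log2 intensities, 29214 probe sets by 18 arrays. Per the submitters' processing notes, it involved RMA and Affymetrix Expression Console 1.3.0.187; their role and order are not given in the sources used here. Per the labels' protocols, RNA was amplified with a whole-transcriptome kit before hybridisation. Array medians were 7.547 to 7.653, so the arrays were not normalized again. RMA and quantile scaling assume similar overall signal in all tumours.

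Of the probe sets, 15310 carry 1 symbol, 323 several and 13581 none; those with 1 symbol were used, the brightest per gene, and genes under the 30th percentile of mean level (6.322) left out. Limma 3.58.1 (statmod 1.5.0, R 4.3.3) fitted 1 mean per group, 3 groups of 6, with Benjamini-Hochberg adjustment over 11370 genes. Promoters were searched as letters. The fit was tested on simulated data. Genes named were the 10 largest called rises and falls with age, the 3 smallest p in each direction for genotype, the 5 largest called each way in the remaining contrast, 20 always named, and up to 3 per further list; other transporters appear with their family. The members and lists were chosen with earlier results of these data known. Alternatives covered filters, normalization, weights, covariates, single omissions and a replicate block. Replicate numbers did not pair the samples (correlations of deviations -0.288 to 0.353).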

Additional observations from a re-analysis of the deposited data

Results flagged for a closer look

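Over 32 named transporters in 3 groups of 6 tumours, 96 groups were screened for a tumour standing apart, by its gap to the nearest other tumour over the whole range of the group against Dixon's critical value. Chance flags about 1 in 20 groups, and 10 of the 96 stood out. In 5 of the 10 the tumour was homozygous replicate 3: Slc7a1 (gap ratio 0.805, level 9.41 against 8.37 to 8.57 in the others), Slc6a9 (0.699, 10.06 against 10.84 to 11.18), Slc7a5 (0.655, 10.61 against 8.27 to 9.08), Slc1a5 (0.646, 9.56 against 8.14 to 8.64) and Slc1a4 (0.627, 8.83 against 8.03 to 8.33). Each of those values lies on the side of the 18-month tumours.

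Of the 9-month heterozygotes, replicate 1 stood apart for Slc6a14 (0.69, level 9.56 against 8.78 to 9.02), and replicate 4 for Slc32a1 (0.648, 6.59 against 6.18 to 6.33) and Slc6a20a (0.636, 9.85 against 9.92 to 9.95). Of the 18-month tumours, replicate 1 stood apart for Slc32a1 (0.713, 7.25 against 6.01 to 6.36) and replicate 2 for Slc6a8 (0.647, 10.02 against 10.20 to 10.30). Slc32a1 was below the level filter. No cause was tested for any of the 10.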

How the results depend on the processing

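Counts of called transporters kept their size under most settings. For age they were 26 to 32 when single arrays were left out (19 to 29 for homozygous 9-month against heterozygous 18-month tumours, 0 to 0 for genotype), and 26 of the 29 were called in every such fit, Slc6a6, Slc7a2 and Slc43a2 being the exceptions; Slc3a2, Slc6a19, Slc7a10, Slc36a2 and Slc38a3 were called in at least 1 of them. With the replicate number as a block, which does not pair the samples, 0, 30 and 24 transporters were called for genotype, age and the remaining contrast. Counts moved by over 1.5 times in these cases. Array weights gave 1 call for genotype. For age, the follicular, C cell and endothelial list means as covariates gave 2, 0 and 1 calls. For the remaining contrast, fitting only the compared groups gave 9. Each of those 3 covariates gave 0 there, with 0%, 0% and 0.0352% of all genes called. By unadjusted p under 0.05, limma gave 12, 11 and 15 of 46 transporters there, against 12.5%, 10.9% and 12% of all genes. Signs turned with the C cell covariate for Slc1a5 (-0.0018), Slc1a3 (-0.0827), Slc38a2 (-0.0014), Slc38a7 (-0.1131), Slc6a6 (-0.2161) and Slc43a1 (0.0179) in the age contrast and Slc6a17 (0.1117) in the remaining contrast, and with the follicular covariate for Slc43a3 (0.0147). The cause was not tested. The endothelial covariate and the omission of 18-month replicates 4 and 5 were added after seeing the data. Signal near background limits the 18 transporters under the filter, and without a filter 30 of 64 were called for age, and 33.6% of all genes.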

Other observations

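A few carriers were high in a single tumour while near background elsewhere; these were chosen after their values were seen. Slc32a1, which loads GABA and glycine into vesicles, was at 7.25 in 18-month replicate 1, and Slc6a15, a neuronal carrier of branched-chain amino acids and proline, at 6.55 in 18-month replicate 3. Both genes were below the level filter, so neither value carries a test.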
